A study of Homo sapiens with 6 samples.

Results

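Epithelial-mesenchymal transition (EMT) is the programme by which epithelial cells give up their junctions and take on a migratory, fibroblast-like form. Zinc-finger and helix-loop-helix repressors of the SNAI, ZEB and TWIST families bind E-box sequences and shut down E-cadherin, the adhesion molecule of epithelia. N-cadherin is gained in its place, which is known as the cadherin switch, and loss of the splicing factor ESRP1 moves many transcripts to their mesenchymal isoforms. The genes described here are 6 such transcription factors (SNAI1, SNAI2, ZEB1, ZEB2, TWIST1 and TWIST2), both cadherins (CDH1 and CDH2) and ESRP1. They were picked out by gene symbol from a list drawn up with earlier results of these data known, and all 9 were found among the 21619 entries of the count table.

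The cells were HT1080, a human fibrosarcoma line, which is mesenchymal in origin, so an epithelial state is not the starting point here. PolyA RNA was sequenced from 3 libraries of cells with stable PGK1 overexpression (genotype label PGK1 OE Cell, called PGK1_OE below) and 3 libraries of control cells (genotype label WT Cell, called WT below). PGK1 is the glycolytic enzyme phosphoglycerate kinase 1. The labels do not name a vector as such, nor say whether the overexpressing cells are 1 clone or a pool. Whether the controls carry an empty vector is not said. The control descriptions carry the code v511, which is not explained. The labels name 1 batch for all 6 libraries. They also do not say that replicates were separate cultures, and the p-values then rest on a spread among libraries that may be no more than technical.

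Depth ran from 34425162 to 40538274 counts per library. PGK1 itself, which checks the labels, averaged 12700 ± 597 CPM (counts scaled to library size) in PGK1_OE and 523 ± 4.03 CPM in WT (SD, n = 3 each). Of 13 fibroblast markers 8 were measured well enough to test, and VIM averaged 3570 ± 24.3 CPM in PGK1_OE and 1890 ± 227 CPM in WT. Summed over that list the authors' FPKM (fragments per kilobase of gene, scaled for depth) lay between 1960 and 1990 in PGK1_OE and between 963 and 1160 in WT. Most of that sum came from VIM, at 1720 ± 18.8 FPKM in PGK1_OE and 943 ± 106 FPKM in WT. COL1A2, COL3A1, PDGFRA, LUM and DCN had at most 10 counts in any library. THY1 was low too, at 0.0545 ± 0.0569 CPM in PGK1_OE and 0.465 ± 0.076 CPM in WT. The epithelial markers EPCAM, GRHL2 and RAB25 had 0 counts in every library, and KRT19 had at most 3 counts in any. The summed FPKM of the 9 epithelial markers was nonetheless 178 to 190 in PGK1_OE and 91.2 to 101 in WT, nearly all of it from KRT8 and KRT18. The 5 endothelial markers summed to 1.73 to 2.49 FPKM in PGK1_OE and 0.68 to 0.803 FPKM in WT. The 5 leukocyte markers summed to 119 to 134 FPKM in PGK1_OE and in WT alike, with PTPRC at 0 counts and CD68, which is not confined to leukocytes, averaging 235 ± 14.2 CPM in PGK1_OE and 227 ± 12.0 CPM in WT. Their part in the results below was not tested.

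Fold changes are PGK1_OE over WT on the log2 scale, tested by quasi-likelihood in edgeR, and p-values were adjusted by the Benjamini-Hochberg method over all 14322 entries that passed the filter on low counts. A gene is said to have risen or fallen where its adjusted p was under 0.05. By that measure 2 of the 9 genes rose (ZEB1 and TWIST1), 5 fell (SNAI2, ZEB2, CDH1, CDH2 and ESRP1) and 2 were not called (SNAI1 and TWIST2). Changes were widespread, since 71.2% of all entries tested were called, 35.4% upward and 35.8% downward. The 7 called of 9 (77.8%) are therefore a share near that of all entries. A fall of at least 2-fold was called for SNAI2, ZEB2, CDH1 and ESRP1, and for 12.1% of all entries. In 8 of the 9 genes the PGK1_OE and WT libraries did not overlap in CPM, as in 76.4% of all entries. The median log2 fold change was -0.54 over the 9 genes, -0.35 without CDH1 and ESRP1, and -0.02 over all entries. CDH1 and ESRP1 passed the low-count filter only through their WT libraries, so their passing already required a difference, and the counts that include them are a description. CDH1, CDH2, TWIST1, ZEB1 and ZEB2 each share exonic bases with a noncoding gene on the other strand, whose reads cannot be told from theirs without a known strand setting. In bulk RNA, fewer cells expressing a gene and less RNA per cell cannot be told apart.

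**Figure D1:**
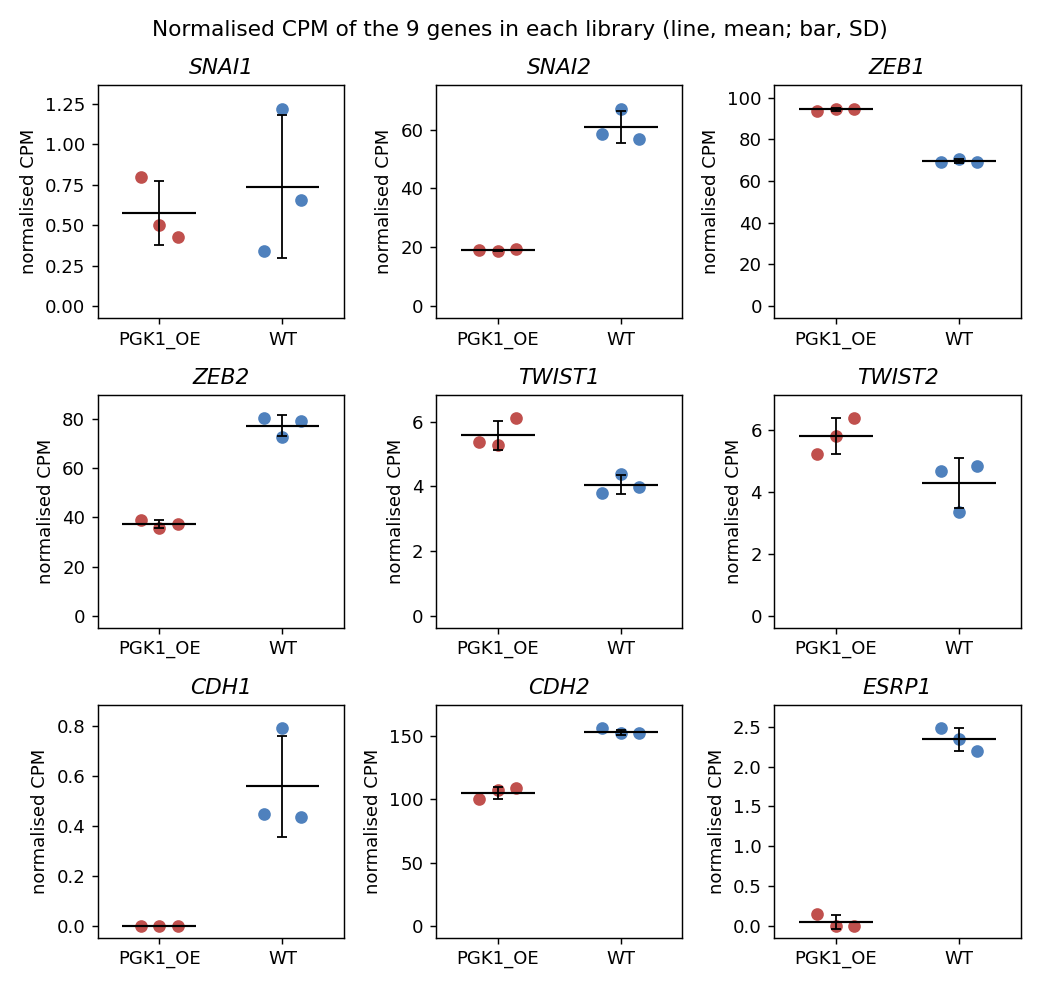
Normalised CPM (vertical axis, linear) of each of the 9 genes in the 3 PGK1_OE libraries (red) and the 3 WT libraries (blue), with the mean as a horizontal line and the SD as a bar. SNAI2, ZEB2, CDH1, CDH2 and ESRP1 were lower in every PGK1_OE library than in any WT library, ZEB1, TWIST1 and TWIST2 were higher, and SNAI1 overlapped.

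The SNAI genes encode zinc-finger repressors of E-cadherin, SNAI1 (Snail) and SNAI2 (Slug). SNAI2 (ENSG00000019549, chromosome 8, 48917604 to 48921740, minus strand of GRCh38) was the factor with the largest called fold change of the 6. Its raw counts were 760, 747 and 680 in the PGK1_OE libraries, against 2218, 2372 and 2082 in the WT libraries. The PGK1_OE libraries lay close together and far under every WT library. Normalised, SNAI2 averaged 19.0 ± 0.234 CPM in PGK1_OE and 60.8 ± 5.49 CPM in WT (SD, n = 3 each). This was a 3.2-fold fall, with a log2 fold change of -1.68 (SE 0.07) and an edgeR adjusted p of 1.89e-09. Among all entries tested, 10.5% had a larger fold change in either direction.

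SNAI1 (ENSG00000124216, chromosome 20, 49982999 to 49988886, plus strand) was scarcely expressed. It had 32, 20 and 15 counts in the PGK1_OE libraries and 13, 43 and 24 counts in the WT libraries. WT replicate 2 held the highest value and WT replicate 1 the lowest, so the groups overlapped fully. Its log2 fold change was -0.35 with a 95% interval of -1.44 to 0.75 (edgeR adjusted p = 0.549), a range that holds both a fall and a rise. Without WT replicate 2 the estimate was 0.22 (edgeR adjusted p = 0.737). The ratio of its summed counts, WT over PGK1_OE and scaled by library totals, was 1.29 with an exact 95% interval of 0.92 to 1.81 that covers counting error only. At this depth no difference in SNAI1 was detected.

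ZEB1 and ZEB2 encode paralogous zinc-finger and homeodomain repressors, and their fold changes had opposite signs. ZEB1 (ENSG00000148516, chromosome 10, 31318495 to 31529814, plus strand) had 3745, 3757 and 3328 counts in the PGK1_OE libraries, against 2612, 2499 and 2522 counts in the WT libraries. All PGK1_OE values were above all WT values. It averaged 94.3 ± 0.572 CPM in PGK1_OE and 69.5 ± 1.03 CPM in WT (SD, n = 3 each), a 1.36-fold rise, with a log2 fold change of 0.44 (SE 0.04) and an edgeR adjusted p of 1.52e-06. Of all entries, 59% had a larger fold change than ZEB1 in either direction. ZEB2 (ENSG00000169554, chromosome 2, 144364364 to 144524583, minus strand) had 1554, 1414 and 1316 counts in the PGK1_OE libraries, against 3037, 2565 and 2899 counts in the WT libraries. Here every PGK1_OE library was below every WT library. ZEB2 averaged 37.3 ± 1.60 CPM in PGK1_OE and 77.3 ± 4.13 CPM in WT, a 2.07-fold fall, with a log2 fold change of -1.05 (SE 0.06) and an edgeR adjusted p of 1.58e-08.

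Per length, the order of the ZEB paralogs turned round between the groups. ZEB1 stood at 15.9, 16.2 and 15.8 FPKM in the PGK1_OE libraries and at 11.9, 12.4 and 11 FPKM in the WT libraries. ZEB2 stood at 7.84, 9.41 and 7.01 FPKM in the PGK1_OE libraries and at 16.7, 14.6 and 17.2 FPKM in the WT libraries. In each PGK1_OE library ZEB1 was the higher of the pair, and in each WT library ZEB2 was. The ratio of ZEB1 to ZEB2 in FPKM was 2.03, 1.72 and 2.26 in PGK1_OE and 0.71, 0.847 and 0.637 in WT. An exact two-sided permutation test of that ratio on the log scale gave p = 0.1, the smallest that 3 against 3 libraries allow. The ratio of raw counts, which is not corrected for length, was 2.41, 2.66 and 2.53 in PGK1_OE and 0.86, 0.974 and 0.87 in WT.

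The ZEB pair is shown with its best-known shared regulator, because both genes carry matches to the same microRNA seeds. The miR-200 family restrains ZEB1 and ZEB2 through their 3′ UTRs and falls into a pair of seed groups. In the RefSeq mature sequences on GRCh38.p14, 5′ to 3′ with the seed (bases 2 to 8) in capitals, the first group read as follows.
hsa-miR-200b-3p: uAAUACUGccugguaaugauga
hsa-miR-200c-3p: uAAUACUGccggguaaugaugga
hsa-miR-429: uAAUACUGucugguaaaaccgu
The other group differs from it within the seed.
hsa-miR-141-3p: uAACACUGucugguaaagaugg
hsa-miR-200a-3p: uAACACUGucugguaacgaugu
The longest annotated 3′ UTR of ZEB1 in GENCODE 29 (2549 bases) held the complement of the first seed, CAGTATT, at 6 positions and that of the other, CAGTGTT, at 3 positions. The longest 3′ UTR of ZEB2 (5370 bases) held them at 5 and 4 positions. These motifs do not overlap one another, and they were read on the transcribed strand. Of 2381 other 3′ UTRs within 20% of the length of that of ZEB1, 26.0% held CAGTATT at all and 29.5% held CAGTGTT. Of 1117 such UTRs for ZEB2, 45.7% held CAGTATT and 51.7% held CAGTGTT. None of either set held CAGTATT as often as the ZEB gene it was matched to, whereas 16 held CAGTGTT at least as often as ZEB1 and 14 at least as often as ZEB2. The first match to each seed in both UTRs, with the match in capitals, was as follows.
ZEB1, base 369 of the UTR: ttgttttatcttatCAGTATTa
ZEB1, base 782 of the UTR: aaaatcatcagaatCAGTGTTt
ZEB2, base 392 of the UTR: gcactaccatacatCAGTATTt
ZEB2, base 208 of the UTR: gcaaaaattttgtaCAGTGTTa
The microRNAs themselves were not measured in these polyA libraries, and a match is a description of letters, not of a working site. Any part of these microRNAs in the changes of ZEB1 and ZEB2 was not tested.

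Upstream of ZEB1, the 250 bases before its first listed RefSeq start were searched for E-boxes, the motif that SNAI, ZEB and TWIST proteins bind. The window (GRCh38.p14, chr10:31318167-31318416, plus strand) lies outside the annotated exons of ZEB1 and is shown 5′ to 3′ with E-boxes in capitals.
ZEB1 upstream window: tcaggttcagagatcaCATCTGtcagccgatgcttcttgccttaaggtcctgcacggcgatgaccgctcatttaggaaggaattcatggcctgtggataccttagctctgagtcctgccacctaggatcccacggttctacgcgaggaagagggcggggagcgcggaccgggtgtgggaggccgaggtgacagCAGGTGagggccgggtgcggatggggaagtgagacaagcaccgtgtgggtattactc
The search took CANNTG, which reads the same on both strands, and CAGGTG with its reverse complement CACCTG, which are instances of CANNTG. The ZEB1 window held 2 CANNTG matches, of which 1, starting 57 bases before the start, was CAGGTG. The corresponding windows held 1 CANNTG match and no CAGGTG or CACCTG for ZEB2, and neither motif for CDH2 and TWIST2. Among the first listed windows of 27305 genes, 62.2% held at least 1 CANNTG and 17.5% at least 1 CAGGTG or CACCTG. Windows of SNAI1, SNAI2, TWIST1, CDH1 and ESRP1 were not analysed here.

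TWIST1 and TWIST2 encode closely related helix-loop-helix factors that act in mesoderm and in EMT. TWIST1 (ENSG00000122691, chromosome 7, 19020991 to 19117672, minus strand) had 215, 209 and 215 counts in the PGK1_OE libraries and 144, 155 and 146 counts in the WT libraries. The groups did not overlap, and TWIST1 averaged 5.58 ± 0.453 CPM in PGK1_OE and 4.06 ± 0.299 CPM in WT (SD, n = 3 each). It rose 1.37-fold, with a log2 fold change of 0.46 (SE 0.16) and an edgeR adjusted p of 0.0215. Significance did not survive removal of PGK1_OE replicate 3 (edgeR adjusted p = 0.0839), of WT replicate 1 (0.0641) or of WT replicate 3 (0.0507), and the adjusted p ran from 0.0153 to 0.0839 over all alternatives.

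TWIST2 (ENSG00000233608, chromosome 2, 238848032 to 238910543, plus strand) had 209, 230 and 225 counts in the PGK1_OE libraries and 177, 119 and 178 counts in the WT libraries. Every PGK1_OE library was again above every WT library, with WT replicate 2 the lowest. TWIST2 averaged 5.80 ± 0.580 CPM in PGK1_OE and 4.30 ± 0.814 CPM in WT. Its log2 fold change of 0.43 (SE 0.18, 95% interval 0.03 to 0.83) was of the size found for TWIST1, but its edgeR adjusted p of 0.0520 missed the threshold. Over the alternatives the edgeR, DESeq2 and limma adjusted p of TWIST2 ran from 0.0326 to 0.160, and several crossed the threshold, among them leaving out PGK1_OE replicate 1 (0.0481) or WT replicate 3 (0.0419). The ratio of TWIST1 to TWIST2 in FPKM averaged 1.2 ± 0.0833 in PGK1_OE and 1.16 ± 0.570 in WT, which differed by less than the spread between libraries (exact permutation p = 0.7).

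**Figure D2:**
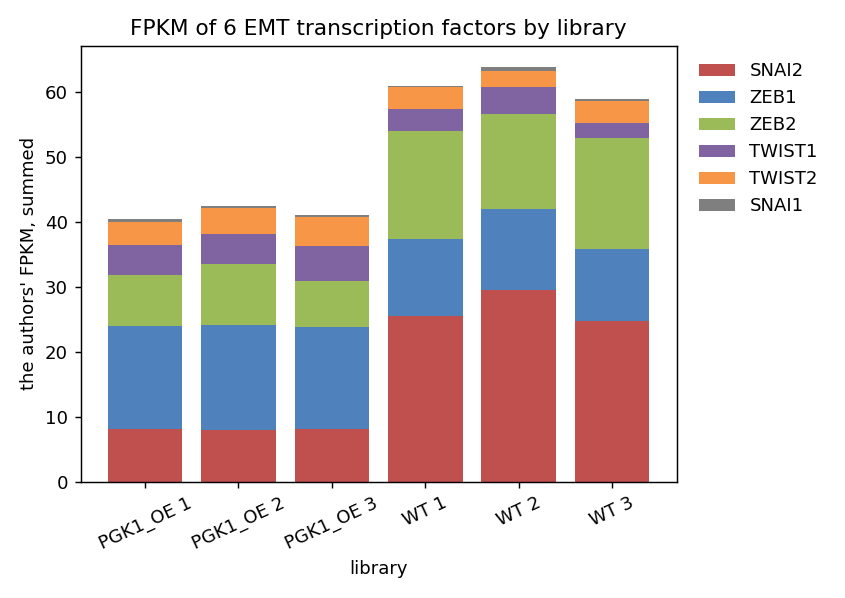
The authors' FPKM of the 6 EMT transcription factors stacked for each library (horizontal axis, PGK1_OE then WT), with each colour 1 gene. The bars reach 40.5 to 42.4 FPKM in PGK1_OE and 59 to 63.9 FPKM in WT, and SNAI2 (red) is about as thick as ZEB2 in PGK1_OE and the thickest layer in WT.

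The mix of the 6 factors differed between the groups, as the stacked plot of FPKM shows. Their summed FPKM averaged 41.3 ± 0.971 in PGK1_OE and 61.3 ± 2.46 in WT (SD, n = 3 each, exact two-sided permutation p = 0.1, the smallest possible). SNAI2 made up 19.5% ± 0.513 of that sum in PGK1_OE and 43.4% ± 2.51 in WT. ZEB1 made up 38.7% ± 0.656 in PGK1_OE and 19.1% ± 0.436 in WT. ZEB2 made up 19.6% ± 2.55 in PGK1_OE and 26.5% ± 3.30 in WT, and both TWIST genes together 21.6% ± 2.25 in PGK1_OE and 10.4% ± 0.677 in WT. By mean FPKM the order in PGK1_OE was ZEB1 (16.0), ZEB2 (8.09), SNAI2 (8.04), TWIST1 (4.86), TWIST2 (4.05) and SNAI1 (0.303). The libraries of ZEB2 and SNAI2 overlapped in that order. In WT the order was SNAI2 (26.6), ZEB2 (16.2), ZEB1 (11.7), TWIST1 (3.33), TWIST2 (3.04) and SNAI1 (0.400), where the TWIST genes overlapped. ZEB1 was thus the most abundant factor per length in PGK1_OE and SNAI2 in WT.

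The cadherins are the classical readout of these factors. CDH2, which encodes N-cadherin (ENSG00000170558, chromosome 18, 27950966 to 28177446, minus strand), was the most abundant of the 9 genes per length in both groups. It had 4009, 4256 and 3833 counts in the PGK1_OE libraries, against 5901, 5381 and 5568 counts in the WT libraries. Its FPKM were 23.0, 24.5 and 24.7 in the PGK1_OE libraries and 36.7, 36.3 and 35.7 in the WT libraries. No PGK1_OE library reached the level of a WT library. CDH2 averaged 105 ± 4.57 CPM in PGK1_OE and 153 ± 2.05 CPM in WT (SD, n = 3 each), a 1.46-fold fall, with a log2 fold change of -0.54 (SE 0.04) and an edgeR adjusted p of 3.56e-07. Of all entries tested 51.2% had a larger fold change in either direction.

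CDH1, which encodes E-cadherin (ENSG00000039068, chromosome 16, 68737225 to 68835548, plus strand), had 0 counts in each of the PGK1_OE libraries and 17, 28 and 16 counts in the WT libraries. It was thus barely detected in WT and not detected in PGK1_OE. Taking 3 counts over the group as the limit that a count of 0 allows, equal to 0.0257 CPM, CDH1 was at least 21.9-fold lower in PGK1_OE than in WT, where it averaged 0.559 ± 0.202 CPM. That floor leaves out the counting error of the 61 WT counts, and with it the exact 95% lower limit of the ratio was 17.3. The edgeR adjusted p was 1.82e-04, and 1.97e-04 with no low-count filter. CDH2 made up 100% of the summed FPKM of both cadherins in each PGK1_OE library and 99.77%, 99.57% and 99.77% in the WT libraries. Each cadherin had fewer counts in every PGK1_OE library than in any WT library, and the pair was almost wholly N-cadherin in every library of either group.

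ESRP1, the epithelial splicing regulator (ENSG00000104413, chromosome 8, 94641074 to 94707466, plus strand), went the way of CDH1. It had 6, 0 and 0 counts in the PGK1_OE libraries, against 94, 83 and 80 counts in the WT libraries. PGK1_OE replicate 1 held all of the counts of its group, while the WT libraries lay close together. ESRP1 averaged 0.05 ± 0.0866 CPM in PGK1_OE and 2.34 ± 0.148 CPM in WT (SD, n = 3 each). Summed over the groups and scaled by library totals it was 46.2-fold lower in PGK1_OE, with an exact 95% counting interval of 21.0 to 127. The edgeR adjusted p was 7.11e-04, and 0.00492 with no low-count filter. The fitted log2 fold change was -5.41, but -9.43 without PGK1_OE replicate 1 (edgeR adjusted p = 4.19e-06), where PGK1_OE had 0 counts and the fitted value is no bound. Without the other libraries in turn it ran no lower than -5.46 and no higher than -4.85. Its paralog ESRP2 had 42, 29 and 31 counts in the PGK1_OE libraries and 88, 55 and 67 counts in the WT libraries. ESRP2 fell too, with a log2 fold change of -1.10 (SE 0.30, edgeR adjusted p = 0.00651).

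**Figure D3:**
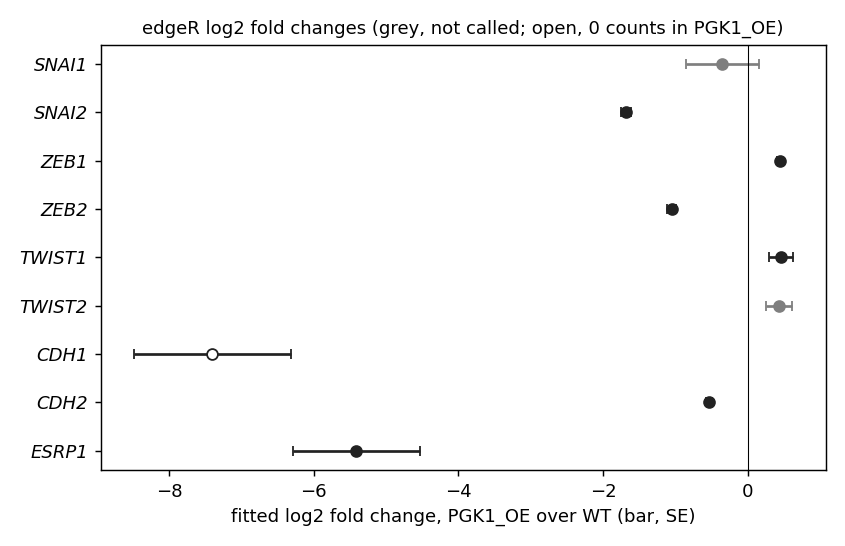
Fitted log2 fold change of each gene, PGK1_OE over WT (horizontal axis), with its SE as a bar, in black where the adjusted p was under 0.05, in grey where it was not, and as an open circle for CDH1, whose fitted value is no bound because PGK1_OE had 0 counts. ESRP1 and CDH1 lie far to the left with wide bars, SNAI2 and ZEB2 lie at -1.68 and -1.05, and ZEB1 and TWIST1 lie to the right of 0 at 0.44 and 0.46.

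Related genes were read from 9 lists in the same fit. The share of tested genes that was called can be set beside the 71.2% of all entries. It was 91.7% for other EMT-promoting factors, 40% for epithelial-state factors, 51.9% for junction and keratin genes, 87.0% for mesenchymal markers and 77.8% for other cadherins. It was 100% for cadherin partners, 84.6% for corepressors, 84.6% for splicing factors and 69.2% for genes with ESRP1-chosen isoforms. Of 12 tested among 16 other EMT-promoting transcription factors, 7 rose, 4 fell and 1 was not called (median log2 fold change 0.48). Those that rose include SNAI3, with 25, 11 and 25 counts in PGK1_OE and 0, 8 and 7 counts in WT. SNAI3 passed the low-count filter only through PGK1_OE. ETS1, an ETS-family factor, fell to 260 ± 6.64 CPM in PGK1_OE, against 1040 ± 26.1 CPM in WT (log2 fold change -2.01 with an SE of 0.04, edgeR adjusted p = 5.17e-12). The AP-1 subunit FOSL1 (-1.49) and the forkhead factor FOXC1 (-1.08) also fell. The chromatin protein HMGA2 rose to 759 ± 37.2 CPM in PGK1_OE, against 271 ± 14.7 CPM in WT (1.48, SE 0.05, edgeR adjusted p = 3.27e-10), and the E-proteins TCF3 (1.18) and TCF4 (0.80), dimer partners of TWIST proteins, rose. These were changes in both directions, as among the 9 genes themselves.

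Of 15 factors that hold the epithelial state, 5 passed the low-count filter, and GRHL2, OVOL1, ELF3 and KLF4 had 0 counts in every library. HNF4A, a nuclear receptor of liver and gut epithelium, had 0 counts in each PGK1_OE library and 32, 40 and 52 counts in the WT libraries. It was at least 44.6-fold lower in PGK1_OE against a limit of 3 counts over the group, and the exact 95% lower limit, which takes in the counting error of WT, was 35.7. It too passed the filter only through its WT libraries. KLF5 fell slightly (log2 fold change -0.20, SE 0.07, edgeR adjusted p = 0.0275), and the other 3 tested were not called. KLF5 averaged 23.8 ± 1.59 CPM in PGK1_OE and 27.4 CPM in WT, and the median of all entries tested was 26.7 CPM.

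Of 40 epithelial junction and keratin genes 27 were tested, and 8 rose, 6 fell and 13 were not called (median log2 fold change 0.00). The list did not move in 1 direction. TJP1, the tight-junction scaffold ZO-1, fell to 57.5 ± 0.583 CPM in PGK1_OE, against 122 ± 1.51 CPM in WT (-1.08, SE 0.04, edgeR adjusted p = 7.41e-10). The simple-epithelial keratin pair KRT8 (1.05) and KRT18 (0.97) rose, and KRT7 fell (-1.29). MAL2, a membrane-traffic protein of polarised cells, had 2, 0 and 2 counts in the PGK1_OE libraries and 39, 64 and 28 counts in the WT libraries, a ratio of 35.3 (exact 95% counting interval 13.5 to 132), and it passed the filter only through WT. CDS1, which rose, had 51, 37 and 24 counts in the PGK1_OE libraries and 13, 7 and 17 counts in the WT libraries. ST14, which fell, had 19, 11 and 8 counts in the PGK1_OE libraries and 47, 53 and 31 counts in the WT libraries. Each passed the filter only through the group where it was higher, so the calls of CDS1, ST14 and MAL2 are a description. KRT8 and KRT18 share exonic bases on opposite strands, so their values are uncertain.

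Of 30 mesenchymal marker genes 23 were tested, and 12 rose, 8 fell and 3 were not called (median 0.32). Those that fell include THY1, with 2, 0 and 4 counts in PGK1_OE and 15, 16 and 20 counts in WT. THY1 passed the low-count filter only through WT. Among those that rose were the matrix protein SPARC (1.09, SE 0.05), the fibronectin receptor subunit ITGA5 (0.78, SE 0.04) and the microfibril protein FBN1 (0.91, SE 0.05). Among those that fell were the receptor tyrosine kinase AXL (-0.84, SE 0.04), the actin-binding protein CALD1 (-0.90, SE 0.05) and the matrix glycoprotein TNC (-1.39, SE 0.07).

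Of 23 other cadherins and calsyntenins, 9 were tested, of which 4 rose, 3 fell and 2 were not called (median 0.55). CDH11, the mesenchymal OB-cadherin, rose to 52.9 ± 1.06 CPM in PGK1_OE, against 23.1 ± 0.907 CPM in WT (1.2, SE 0.06, edgeR adjusted p = 4.91e-09). CDH4, the R-cadherin closest to N-cadherin, fell to 89.5 ± 4.73 CPM in PGK1_OE, against 188 ± 3.67 CPM in WT (-1.07, SE 0.05, edgeR adjusted p = 2.20e-09). The membrane-anchored T-cadherin CDH13 fell by less (-0.31, SE 0.04), and CLSTN1 (0.60) and CDH24 (0.55) rose. CDH15 fell as well (-1.36, SE 0.55, edgeR adjusted p = 0.0434) at 0.196 ± 0.0958 CPM in PGK1_OE and 0.513 ± 0.144 CPM in WT. It had 10, 10 and 3 counts in the PGK1_OE libraries and 16, 24 and 16 counts in the WT libraries. It passed the low-count filter only through WT, so its call is a description.

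All 18 tested of 22 genes for cadherin partners and processing were called, 11 upward and 7 downward (median 0.26). NECTIN1, a nectin of adherens junctions, rose to 42.7 ± 1.43 CPM in PGK1_OE, against 8.75 ± 0.917 CPM in WT (2.29, SE 0.08, edgeR adjusted p = 7.02e-10). Vinculin VCL (0.97, SE 0.05) and beta-catenin CTNNB1 (0.63, SE 0.04), which help to link cadherins to actin, rose. Beta-catenin also carries Wnt signals. VEZT (-0.47), ARHGAP32 (-0.63) and PTPN1 (-0.29) fell.

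Of 26 corepressors and regulators of Snail stability, all tested, 15 rose, 7 fell and 4 were not called (median 0.28). HDAC1, a deacetylase recruited by these repressors, rose to 135 ± 3.22 CPM in PGK1_OE, against 55.0 ± 4.19 CPM in WT (1.29, SE 0.06, edgeR adjusted p = 2.55e-09), and the scaffold SIN3A (1.05) rose with it. The LIM-domain proteins AJUBA and LIMD1, both partners of Snail, moved apart, with AJUBA falling (-0.79, SE 0.04) and LIMD1 rising (0.92, SE 0.04). The methyltransferase PRMT5 (-0.45) and the ubiquitin-ligase subunit FBXO45 (-0.63) fell.

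Of 13 tested splicing factors that act with or against ESRP1, 6 rose, 5 fell and 2 were not called (median 0.06). MBNL1 (0.99, SE 0.04), HNRNPM (0.79, SE 0.04) and KHDRBS1 (0.45, SE 0.04) rose, whereas QKI (-0.48, SE 0.04) and PTBP2 (-0.73, SE 0.13) fell. RBFOX3 had 0, 7 and 3 counts in the PGK1_OE libraries and 68, 68 and 58 counts in the WT libraries (ratio 20.9, exact 95% counting interval 11.1 to 44.4), and it passed the filter only through WT. Of 13 tested genes whose isoforms ESRP1 is known to choose, 5 rose, 4 fell and 4 were not called (median 0.04). ARFGAP2 (-0.44) and CTNND1 (-0.20) fell, and MPRIP (0.81), CD44 (0.42) and SCRIB (0.41) rose. FGFR2, whose exon choice is the textbook ESRP1 event, had 0 counts in every library. Counts per gene do not show isoforms, so splicing was not measured.

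**Figure D4:**
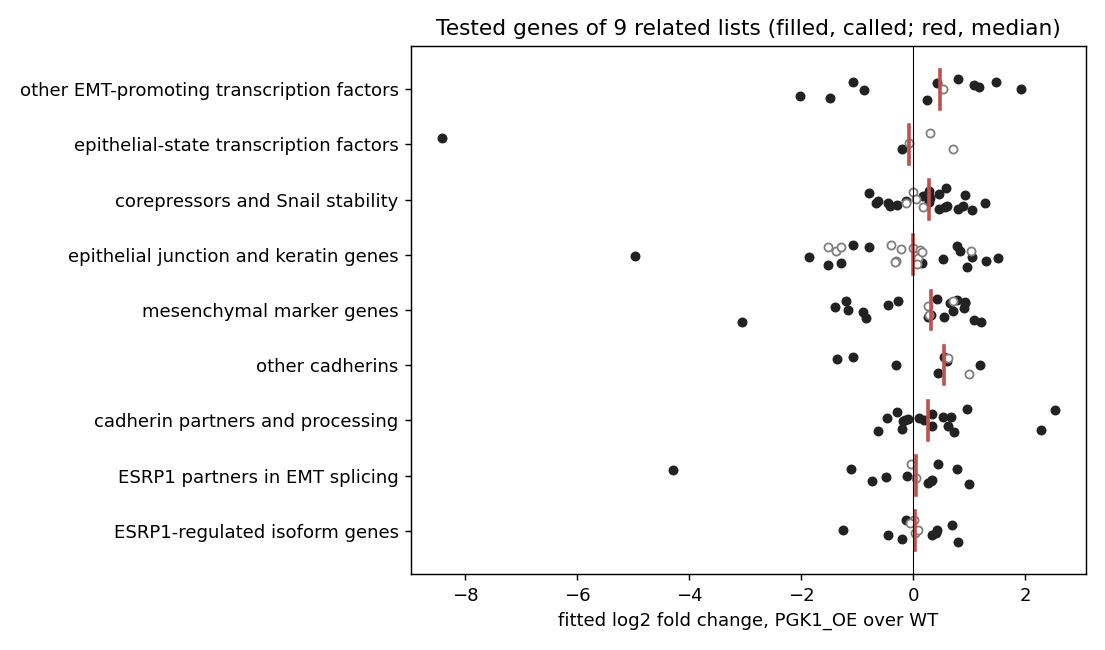
Fitted log2 fold change, PGK1_OE over WT (horizontal axis), of the tested genes of each of 9 lists (rows), filled where called and open where not, with the list median as a red line. List medians lie between -0.08 and 0.55, each list holds values on both sides of 0, and the far left points are HNF4A, MAL2, RBFOX3 and THY1, which had few or no counts in PGK1_OE.

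For the 6 of the 9 genes whose mean log2 CPM reached 2, the entries with the most similar profile were taken by Pearson r of log2 CPM over the 6 libraries. For SNAI2 these were FAM200A, DENND5B and ETFRF1, for ZEB2 IGF2BP2, IFRD1 and NEPRO, and for CDH2 CWC22, ZNF501 and EIF3J, each with a negative log2 fold change. For ZEB1 they were UBE2S, CD276 and TOPBP1, for TWIST1 BPGM, SF3B5 and UTP3, and for TWIST2 SART3, ZC3H4 and PTPRD, each with a positive one. With 2 groups so far apart such likeness is common. Of 10809 entries compared, 2932 had an r of at least 0.95 with SNAI2, 3079 with ZEB1, 2830 with ZEB2 and 2776 with CDH2, against 303 with TWIST1 and 43 with TWIST2. The points share libraries and group, so r is a description here.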

How the data were processed

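PolyA RNA of 6 HT1080 libraries was sequenced. Fastp, HISAT and build hg38 are named per the submitters' processing notes. Tool versions, annotation, read counter and strand setting were not given in the sources used here. Raw counts of reads, as deposited by the authors, were used for tests, and the deposited FPKM table holds the authors' length- and depth-normalised values. For ZEB2 and TWIST1 the FPKM is not a fixed multiple of the counts.

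Counts were analysed with edgeR 4.0.16 in R 4.3.3: filterByExpr by group, TMM factors, robust quasi-likelihood fit with group as the only term, two-sided, Benjamini-Hochberg over 14322 entries. SE is the absolute log2 fold change over the square root of F. For symbols on several entries the one with most counts was taken. Alternatives used limma 3.58.1 and DESeq2 1.42.0. The steps were run on simulated counts in which 200 well-expressed genes were changed, equally up and down. Far more entries were called in the data, so that run cannot judge the scaling here. It also cannot judge the calls of genes with few counts. Coordinates and overlaps come from GENCODE 29 on GRCh38. CDH1, CDH2, TWIST1, ZEB1 and ZEB2 overlap exons of an opposite-strand noncoding gene, and many list genes overlap another gene, so without a known strand setting their values may include its reads. Members and lists were chosen with earlier results of these data known. Named list genes are up to 3 risers and 3 fallers per list with the smallest adjusted p; a few genes that this rule names are not reported here. ESRP2, VIM, THY1, CD68, KRT19, SNAI3, CDS1, ST14, COL1A2, COL3A1, PDGFRA, LUM, DCN and genes with 0 counts were named after their values were seen.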

Additional observations from a re-analysis of the deposited data

How the results depend on the processing

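Over 19 alternatives the number of entries called ran from 8831 to 10343 and the number of the 9 genes called from 6 to 8. The directions and calls of SNAI2, ZEB1, ZEB2 and CDH2 held under each alternative. Those of CDH1 and ESRP1 held where they could be tested. Most of these fits kept the filter that both genes passed only through WT, so they are no independent check. Their log2 fold changes ran from -7.55 to -0.15 for CDH1 and from -9.43 to -0.64 for ESRP1. The values nearest 0 came from limma on log2(FPKM + 1) without a filter. SNAI1 ran from -0.69 to 0.22 when a library was left out, reaching 0.22 without WT replicate 2, where the highest of its few counts was left out. TWIST1 also missed the threshold with limma on log2(FPKM + 1) without a filter (adjusted p = 0.0804) and at a threshold of 0.01. TWIST2 passed with RLE factors (edgeR adjusted p = 0.0498). The list of epithelial-state factors gave 1 called gene with a minimum of 1 CPM in 3 libraries, with both limma fits on filtered FPKM and at a threshold of 0.01, and 1 to 2 when a library was left out. That list gave 3 called genes with no low-count filter, and 3 with limma on log2(FPKM + 1) without a filter. The junction and keratin list gave 7 with either filtered FPKM fit, where fewer genes were tested, and 12 to 16 when a library was left out. The replicate number as a block gave 9943 calls. Deviations of same-numbered libraries correlated at -0.01, -0.01 and 0.10, and 1 of 3 was highest with its own number, so the numbers were not taken to pair libraries. CDH1, ESRP1 and SNAI1 are limited by depth.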

Other observations

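Among the WT libraries, 1 must be highest and 1 lowest for any gene. Replicate 2 had the highest WT value of SNAI1 (1.22 CPM), SNAI2 (67.1 CPM), ZEB1 (70.7 CPM), TWIST1 (4.39 CPM) and CDH1 (0.792 CPM). It had the lowest of ZEB2 (72.6 CPM) and TWIST2 (3.37 CPM). The FPKM of a library divided by its CPM is nearly fixed for SNAI2 (0.425 to 0.433) and CDH2 (0.231 to 0.233), but ran from 0.191 to 0.269 for ZEB2 and from 0.570 to 0.954 for TWIST1. The order of libraries differed between the tables in both groups for ZEB2 and within WT for TWIST1, and was the same within PGK1_OE for TWIST1.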
